A study of Homo sapiens with 8 samples.

Results

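Terminal nucleotidyltransferases are enzymes that add untemplated nucleotides to the 3′ ends of RNAs, and 6 of them were followed here together with DIS3L2, an exonuclease that degrades RNAs carrying oligo(U) tails. The members are the uridylyltransferases TUT7 (older name ZCCHC6), TUT4 (ZCCHC11) and TUT1, the poly(A) polymerases TENT2 (PAPD4), TENT4A (PAPD7) and TENT4B (PAPD5), and DIS3L2. All 7 were found among the 13546 genes of the count table. The family was chosen by the TUT7 values of these same libraries, which differed between the genotypes, so the TUT7 difference is described below with no test. The other 6 belong to the family by function, and the question was whether they shared the TUT7 difference.

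The samples were 8 tumours from nude mice that had received injected MDA-MB-231 cells, a cell line of human triple-negative breast cancer grown in RPMI medium. Of these, 4 tumours came from cells labelled CDK4KO and 4 from cells labelled CDK4WT. CDK4 is the cyclin D-dependent kinase of the G1/S transition, and the labels do not say how it was disrupted or whether each line was a clone. The mice were nude, which lack a thymus and so most T cells, and the labels do not say that each tumour came from its own mouse. The p-values therefore measure the spread between these libraries, which may be technical in part.

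Libraries held 27840883 to 33617977 counts. CDK4 mRNA stood at 111, 119, 125 and 134 CPM (TMM-scaled, on the counts-per-million scale) in the 4 CDK4KO libraries, against 115, 107, 116 and 112 CPM in the 4 CDK4WT libraries, so this level does not check the labels, and CDK4KO names libraries as labelled throughout. VIM, the vimentin gene that marks this mesenchymal-like line, averaged 9188 CPM ± 1381 in CDK4KO tumours and 9818 CPM ± 1153 in CDK4WT tumours (SD, n = 4 each), and all 7 markers of the line were measured. Of 7 markers of luminal or receptor-positive breast cells, 4 were measured, with a summed level of 115 to 127 CPM in CDK4KO libraries and 117 to 120.2 CPM in CDK4WT libraries. Most of that sum was ERBB2, the HER2 receptor gene, which averaged 103 CPM ± 6.57 in CDK4KO and 98.7 CPM ± 2.52 in CDK4WT and so was not low, while EPCAM averaged 10.03 CPM ± 1.10 in CDK4KO and 9.65 CPM ± 1.68 in CDK4WT, and GATA3 and FOXA1 averaged below these. ESR1, PGR and CDH1, which the line is known to lack or hold at low levels, were not found among the genes of the count table. Markers of host cell types were read on the human genes of the table. Summed CPM of 4 measured fibroblast markers of 6 ran from 682 to 1178 in CDK4KO libraries and from 775 to 1192 in CDK4WT libraries. Summed CPM of 4 leukocyte markers of 6 ran from 105 to 232 in CDK4KO and from 114 to 162 in CDK4WT. Summed CPM of 3 endothelial markers of 5 ran from 18.3 to 24.3 in CDK4KO and from 18.2 to 19.2 in CDK4WT, and those of 2 muscle markers of 4 from 3.96 to 8.58 in CDK4KO and from 6.85 to 26.2 in CDK4WT. None of the measured markers passed the edgeR test over all genes, the part of host cells in the results was not tested, and in such bulk RNA fewer cells of a type and less RNA per cell cannot be told apart. CDK4KO replicates 1 and 4 had the lowest mean correlation with their own group, at 0.985 and 0.986, against 0.988 and 0.989 in the other CDK4KO libraries and 0.992 to 0.995 in CDK4WT.

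TUT4 and TUT7 are large paralogous enzymes with CCHC zinc knuckles that uridylate messenger RNAs with short poly(A) tails and precursors of microRNAs. Their best known microRNA substrates are the let-7 precursors. When the RNA-binding protein LIN28 holds the precursor at a GGAG motif of its loop, the enzymes add an oligo(U) tail that blocks Dicer and recruits DIS3L2. Not every precursor of the family holds GGAG, which those of MIRLET7A3, MIRLET7B and MIR98 lack. Without LIN28, addition of a single U can instead help Dicer to process precursors with a short overhang. let-7 is known as a repressor of growth genes in tumours, which is why its sequence and its targets are taken up here. The sequences below, from RefSeq on GRCh38.p14, show the let-7g precursor (GGAG in capitals; chr3:52268278-52268361, minus strand) and mature let-7 members with the shared seed, bases 2 to 8, in capitals.
let-7g precursor: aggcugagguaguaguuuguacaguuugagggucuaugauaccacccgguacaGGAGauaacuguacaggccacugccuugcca
let-7g-5p: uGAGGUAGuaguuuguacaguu
let-7a-5p: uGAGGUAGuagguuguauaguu
let-7d-5p: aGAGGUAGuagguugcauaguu
miR-98-5p: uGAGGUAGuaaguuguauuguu
The seed GAGGUAG pairs with the letters CTACCTC in a 3′ untranslated region. Levels of these microRNAs were not analysed here. LIN28A and LIN28B were looked for and were not found among the genes of the count table, so no level can be given for them.

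TUT7 mRNA was higher in CDK4KO tumours, and no other member showed a difference of that size. TUT7 averaged 109.7 CPM ± 9.19 in CDK4KO tumours and 78.4 CPM ± 3.69 in CDK4WT tumours (SD, n = 4 each). The 4 CDK4KO libraries held 103, 116, 119.5 and 101 CPM, replicates 1 to 4, against 78.1, 74.0, 83.0 and 78.8 CPM in the 4 CDK4WT libraries. All CDK4KO libraries lay above all CDK4WT libraries, and the lowest CDK4KO value was 21.9% above the highest CDK4WT value. These values rest on 3004 to 3842 reads per CDK4KO library and 2273 to 2507 reads per CDK4WT library. On the log2 scale the difference, CDK4KO minus CDK4WT, was 0.48 ± 0.07 (SE of the edgeR fit), a ratio of means of 1.40. With each library left out in turn it ran from 0.44, without CDK4KO replicate 3, to 0.52, without CDK4KO replicate 4. The SE and this range describe the libraries that led to the choice of TUT7 and do not test its difference. TUT7 (ENSG00000083223) is annotated on chromosome 9 from 86287733 to 86354454, minus strand (hg38, GENCODE 29), and none of its exons overlaps another annotated gene.

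**Figure D1:**
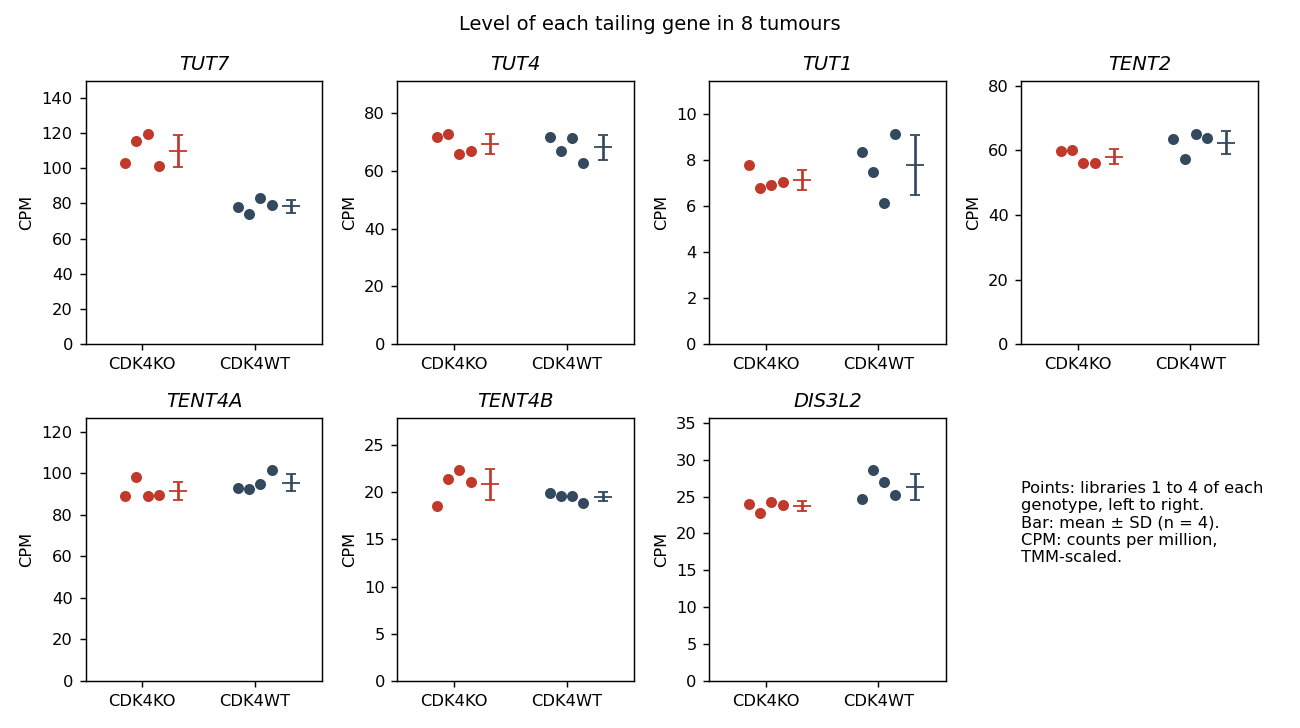
Level of each of the 7 genes in CPM (vertical axes, each from 0) in the 4 CDK4KO libraries and the 4 CDK4WT libraries, with the mean ± SD beside them. TUT7 shows CDK4KO points of 101 to 119.5 CPM above CDK4WT points of 74.0 to 83.0 CPM, and in 5 of the other 6 genes the points of the genotypes overlap.

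By edgeR's quasi-likelihood method, none of the other 6 members had an adjusted p below 0.05 over all genes. Of 13546 genes, 8 passed, or 0.0591%, with 0.0443% higher and 0.0148% lower in CDK4KO. None reached an unadjusted p of 0.05, which 13.0% of all genes did (6.64% higher and 6.33% lower in CDK4KO), and 0 of the 6 passed in DESeq2 or in limma voom with library quality weights, which called 2.33% and 2.10% of all genes. Their log2 differences ran from -0.15 to 0.09 with a median of -0.08, against a median of 0.00 (0.0037) over all genes, and 2 of the 6 were above 0, as were 51.2% of all genes. A p that misses the threshold does not show equal levels, and the intervals give the sizes that remain possible. The upper 95% limits of the 6 differences reached at most 0.26, in TENT4B, against the TUT7 estimate of 0.48. TUT7 was chosen by its difference in these same libraries, so its estimate may be too high. A doubling or halving lies outside all 6 intervals, whose lowest limit was -0.41, in TUT1.

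**Figure D2:**
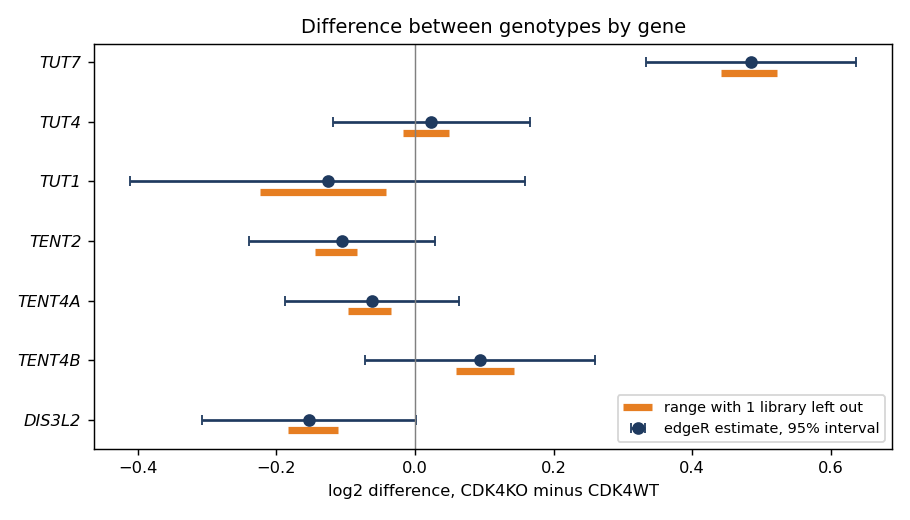
Log2 difference, CDK4KO minus CDK4WT, of each member (points) with its 95% interval (thin bars) and the range over 8 fits that each leave out 1 library (thick bars). TUT7 stands at 0.48, with bars that describe the values that led to its choice, and the intervals of the other 6 genes end at 0.26 or below.

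TUT4, the closest paralogue of TUT7, showed no difference of that size. TUT4 (ENSG00000134744, chromosome 1, 52408282 to 52553487, minus strand) held 71.6, 72.8, 65.7 and 66.7 CPM in the CDK4KO libraries, against 71.7, 66.6, 71.5 and 62.5 CPM in the CDK4WT libraries. The genotypes covered nearly the same range. The log2 difference was 0.02 ± 0.06 (SE), with a 95% interval of -0.12 to 0.17 (edgeR adjusted p = 0.909), and it changed sign when CDK4KO replicate 2 or CDK4WT replicate 4 was left out, at -0.0017 and -0.0175. The ratio of TUT7 to TUT4 CPM within a library, which no scaling of libraries can change, was 1.43, 1.59, 1.82 and 1.52 in CDK4KO and 1.09, 1.11, 1.16 and 1.26 in CDK4WT. These ratios did not overlap, and they carry the TUT7 difference that led to the choice of the family, so no test is given.

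TUT1, a nuclear enzyme also called Star-PAP that oligouridylates U6 small nuclear RNA and polyadenylates some mRNAs, was the lowest member by count. TUT1 (ENSG00000149016, chromosome 11, 62575045 to 62592177, minus strand) held 7.80, 6.80, 6.91 and 7.04 CPM in the CDK4KO libraries, against 8.35, 7.49, 6.13 and 9.15 CPM in the CDK4WT libraries. The CDK4WT values enclosed all CDK4KO values, and the log2 difference was -0.13 ± 0.13 (SE; edgeR adjusted p = 0.717). With 171 to 264 reads per library it had the widest interval of the 6, from -0.41 to 0.16. Of its annotated exon bases, 40.4% also belong to AP002990.1, a protein-coding gene on the same strand, so a part of its reads may have been left out or assigned otherwise.

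TENT2, also called GLD2, is a cytoplasmic poly(A) polymerase that extends mRNA tails and adds single A residues to microRNAs. TENT2 (ENSG00000164329, chromosome 5, 79612120 to 79686648, plus strand) held 59.7, 60.2, 56.1 and 56.0 CPM in the CDK4KO libraries, against 63.5, 57.2, 65.1 and 63.8 CPM in the CDK4WT libraries. CDK4WT replicate 2 lay within the CDK4KO range and the other 3 CDK4WT libraries above it. The log2 difference was -0.10 ± 0.06 (SE; 95% interval -0.24 to 0.03, edgeR adjusted p = 0.506).

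TENT4A and TENT4B are nuclear poly(A) polymerases that can also build mixed A and G tails, and TENT4B works in the nuclear surveillance complex TRAMP. TENT4A (ENSG00000112941, chromosome 5, 6713007 to 6757048, plus strand) held 89.2, 98.1, 89.2 and 89.8 CPM in the CDK4KO libraries, against 93.2, 92.7, 95.1 and 101 CPM in the CDK4WT libraries. Apart from CDK4KO replicate 2, the CDK4KO libraries lay below all CDK4WT libraries, and the log2 difference was -0.06 ± 0.06 (SE; 95% interval -0.19 to 0.06, edgeR adjusted p = 0.680). TENT4B (ENSG00000121274, chromosome 16, 50152918 to 50235310, plus strand) held 18.6, 21.4, 22.3 and 21.0 CPM in the CDK4KO libraries, against 19.97, 19.6, 19.6 and 18.9 CPM in the CDK4WT libraries. Here CDK4KO replicate 1 was the lowest library of all and the other 3 CDK4KO libraries lay above all CDK4WT libraries, with a log2 difference of 0.09 ± 0.08 (SE; 95% interval -0.07 to 0.26, edgeR adjusted p = 0.633). The ratio of TENT4A to TENT4B CPM was 4.80, 4.58, 3.99 and 4.27 in the CDK4KO libraries and 4.67, 4.72, 4.85 and 5.37 in the CDK4WT libraries, and these ranges overlapped.

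DIS3L2, which digests uridylated RNAs from the 3′ end, was the only member of the 6 whose libraries did not overlap between the genotypes. DIS3L2 (ENSG00000144535, chromosome 2, 231961245 to 232344350, plus strand) held 24.0, 22.7, 24.2 and 23.8 CPM in the CDK4KO libraries, against 24.6, 28.6, 27.0 and 25.2 CPM in the CDK4WT libraries. All CDK4KO libraries lay below all CDK4WT libraries, with a gap of 1.79% between the nearest values. Over all genes, 7.68% had libraries that did not overlap, 3.87% with all CDK4KO libraries higher and 3.81% with all lower. The log2 difference was -0.15 ± 0.07 (SE; 95% interval -0.31 to 0.002) and did not pass (edgeR adjusted p = 0.392; unadjusted p = 0.0526). Without CDK4KO replicate 1, without CDK4KO replicate 2 or without CDK4WT replicate 2, the number of the 6 that did not overlap was 2 in place of 1. The added member was TENT4B (higher in CDK4KO), TENT4A (lower) and TENT2 (lower) in turn. Fewer libraries separate more easily, and the share over all genes was not counted for these fits, so nothing is read from this change. Of DIS3L2 exon bases, 4.93% overlap a pseudogene on the same strand and 0.450% an antisense gene.

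**Figure D3:**
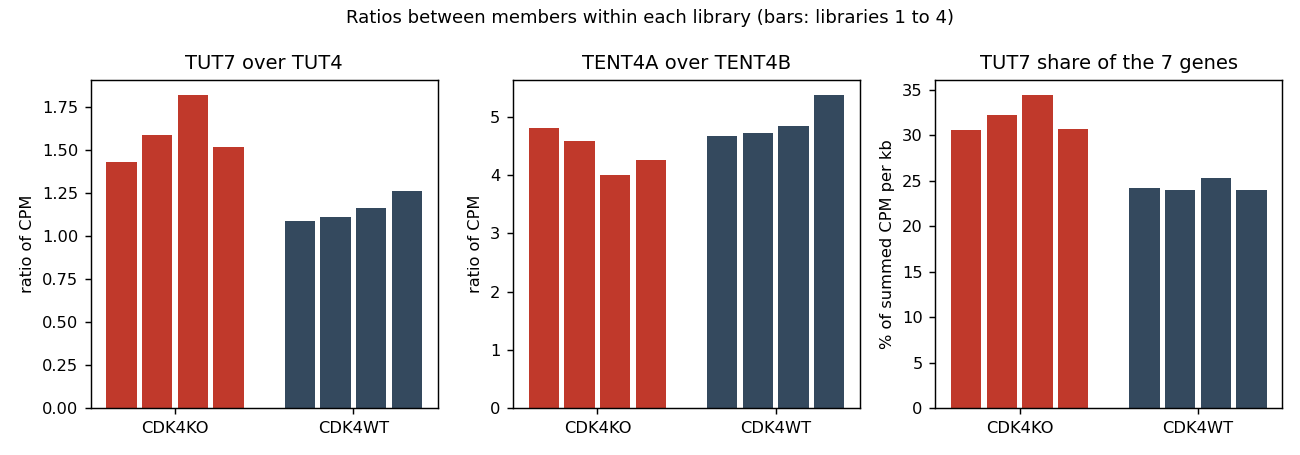
Ratio of TUT7 to TUT4 CPM and of TENT4A to TENT4B CPM, and the share of TUT7 in the summed CPM per kilobase of the 7 genes (vertical axes, each from 0), in each CDK4KO and CDK4WT library (1 bar each). The TUT7 ratio is 1.43 to 1.82 in CDK4KO and 1.09 to 1.26 in CDK4WT, whereas the TENT4A ratio overlaps.

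Per length of annotated exons, TUT7 was the highest member in CDK4KO tumours and TENT4A in CDK4WT tumours. The level per length (CPM divided by the exon length in kilobases, or RPKM) of TUT7 averaged 16.4 ± 1.37 in CDK4KO and 11.7 ± 0.55 in CDK4WT (SD, n = 4 each). TENT4A averaged 13.5 ± 0.644 RPKM in CDK4KO and 14.1 ± 0.596 RPKM in CDK4WT, and in neither genotype did its range overlap that of TUT7. TENT2 averaged 10.5 ± 0.41 RPKM in CDK4KO and 11.3 ± 0.642 RPKM in CDK4WT, where its range overlapped that of TUT7. TUT4 averaged 4.27 ± 0.218 RPKM in CDK4KO and 4.20 ± 0.271 RPKM in CDK4WT. The lowest levels were those of TENT4B, DIS3L2 and TUT1, at 2.56, 2.09 and 1.75 RPKM in CDK4KO, whose ranges did not overlap there, and at 2.40, 2.32 and 1.91 RPKM in CDK4WT, where the ranges of neighbours in this order overlapped.

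The order of TUT7, TENT4A and TENT2, and that of TENT4B and DIS3L2, depended on the length used, while TUT4 stayed at rank 4 and TUT1 at rank 7 in both genotypes under all 3 lengths. With the longest transcript as the length, TUT7, TENT4A and TENT2 stood at 19.2, 16.8 and 16.5 RPKM in CDK4KO, with overlapping ranges of TUT7 and TENT4A, and at 13.7, 17.5 and 17.7 RPKM in CDK4WT, and TUT4 stood at 11.8 RPKM in CDK4KO. With coding length, TENT2 and TENT4A led in both genotypes, at 39.9 and 38.5 RPKM in CDK4KO, against 24.5 RPKM for TUT7. TUT7 made up 30.6% to 34.4% of the summed level per exon length of the 7 genes in CDK4KO libraries and 24.0% to 25.3% in CDK4WT libraries.

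The spread between libraries of a genotype lay on both sides of the median of well-counted genes. The coefficient of variation in CDK4KO was 8.37% for TUT7 and 2.83% to 7.72% for the others, against a median of 8.12% over 8784 genes of an average log2 CPM of at least 4. In CDK4WT it was 4.70% for TUT7, 16.6% for TUT1 and 2.32% to 6.79% for the others, against a median of 5.74%. TUT4, at 6.45%, and DIS3L2, at 6.79%, also lay above that median. TUT1, at 7.13 CPM in CDK4KO and 7.78 CPM in CDK4WT, was below the level of the genes behind these medians, so its spread is not comparable with them.

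The genes whose pattern over the 8 libraries was most like that of TUT7 were CARD8, FICD, ANTXR2, LINC00641 and MOSMO, by the root mean square difference of centred log2 CPM among 11439 genes. CARD8, an inflammasome sensor, was nearest, at 0.0778, and held 122, 114, 131 and 110.4 CPM in the CDK4KO libraries, against 87.3, 85.3, 88.7 and 82.5 CPM in the CDK4WT libraries. FICD, which modifies the chaperone BiP by AMPylation, differed from TUT7 by 0.101 and held 17.3, 19.6, 19.1 and 18.6 CPM in CDK4KO, against 12.8, 14.5, 13.1 and 13.8 CPM in CDK4WT. ANTXR2, an anthrax toxin receptor, LINC00641, a long non-coding RNA, and MOSMO, a membrane protein that limits Hedgehog signalling, lay at 0.102, 0.102 and 0.103. The median over the ranked genes was 0.28. None of these 5 is a member, and the nearest member, TENT4B, ranked 1046th, followed by TUT4 at 3605 and TENT4A at 6011. Likeness to TUT7 is in large part likeness in the difference between the genotypes, so it is given as a description only.

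The genes next to TUT7 on chromosome 9 had a median difference near 0. Over the 5 measured genes on either side the median log2 difference was -0.001, 5 of 10 were above 0, and none passed over all genes (edgeR; 1 of 10 at an unadjusted p of 0.05). ISCA1, an iron-sulfur cluster assembly gene and the nearest measured neighbour, averaged 40.9 CPM ± 3.80 in CDK4KO and 37.1 CPM ± 1.07 in CDK4WT, with a log2 difference of 0.14 ± 0.07 (SE; edgeR adjusted p = 0.442). All its CDK4KO libraries lay above all CDK4WT libraries, as in 3.87% of all genes. It was the 1 neighbour of the 10 that did not overlap. For the other 6 members the medians of 10 neighbours ran from -0.04, at TUT1, to 0.05, at TENT4B, and 0 neighbours passed (edgeR; 0 to 3 of 10 at an unadjusted p of 0.05). In the 250 bases before the RefSeq start, 6 promoters of 5 members (TUT7, TUT1, TENT2, TENT4B and DIS3L2) were searched on both strands for the E2F consensus. For some members, such as DIS3L2, this start lies inside the GENCODE gene given above. The letters searched were TTGGCGC, the variant TTCGCGC, the variant TTCCCGC and, last, the variant TTGCCGC. None of the 6 held any of them, as against 16.0% of 15525 promoters of genes in the count table and 10.9% of all 35116 RefSeq promoters, over the same length. The absence says only that these letters are not in this window.

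Genes that act with the tailing enzymes were read next, in 10 lists of RNA tailing, decay and let-7 biology with 124 measured genes. None of the 124 passed over all genes in edgeR, 5 were higher and 6 lower at an unadjusted p of 0.05, or 8.87% together against 13.0% of all genes, and the median log2 difference was 0.01. The genotypes did not overlap in 1 of the 124 with all CDK4KO libraries higher and in 3 with all lower. Over all genes the shares were 3.87% and 3.81%. DESeq2 called 1 of the 124, CCND2. With library quality weights, limma voom called 2, CCND2 and ZFC3H1, which edgeR also called without CDK4KO replicate 1. Without both CDK4KO replicates 1 and 4, edgeR called 5, all higher: CCND2, CDK6, DICER1, SMG1 and ZFC3H1. The same fit called 447 of all 13546 genes, 277 of them higher. Without CDK4KO replicate 1 edgeR called 183 of all genes, while DESeq2 and limma voom called 2.33% and 2.10%. These counts are therefore not read as a result about the lists. The other 13 alternatives called 0 of the 124.

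**Figure D4:**
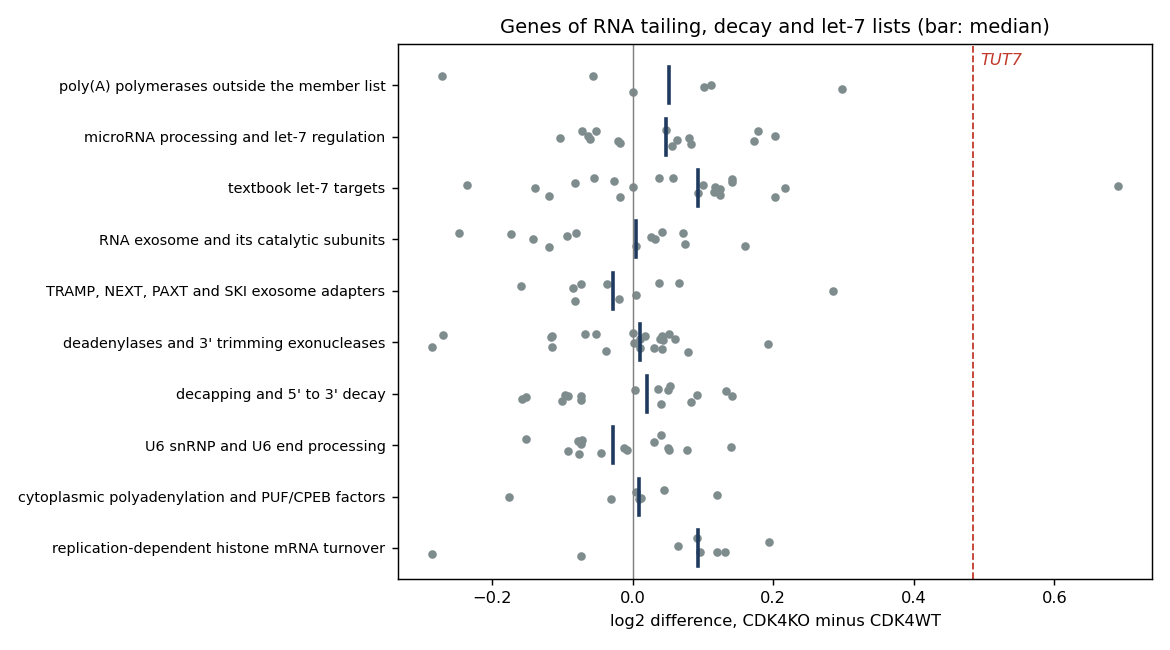
Log2 difference, CDK4KO minus CDK4WT, of each measured gene (grey points) in 10 lists of RNA tailing, decay and let-7 biology, with the median of each list (bar) and the value of TUT7, 0.48 (dashed line). CCND2, at 0.69, is the only point beyond TUT7, and list medians lie between -0.03 and 0.09.

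Of 6 other poly(A) polymerases measured, 4 were above 0, with a median of 0.05 and a range of -0.27 to 0.30, and none passed (edgeR; 0 at an unadjusted p of 0.05). TENT5A, a non-canonical poly(A) polymerase, averaged 25.9 CPM ± 2.33 in CDK4KO and 31.3 CPM ± 5.98 in CDK4WT (log2 difference -0.27 ± 0.13, adjusted p = 0.397). PAPOLA, the canonical nuclear poly(A) polymerase, averaged 252 CPM ± 10.4 in CDK4KO and 234 CPM ± 9.54 in CDK4WT (0.11 ± 0.06, adjusted p = 0.436).

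Among 15 measured genes of microRNA processing and let-7 regulation, 8 were above 0, the median was 0.05 and none passed in edgeR. AGO3, an Argonaute protein that carries microRNAs, averaged 62.6 CPM ± 4.21 in CDK4KO and 55.5 CPM ± 4.64 in CDK4WT (0.17 ± 0.08, adjusted p = 0.366). AGO2, the Argonaute with slicer activity, averaged 447 CPM ± 69.8 in CDK4KO and 395 CPM ± 25.4 in CDK4WT (0.18 ± 0.10, adjusted p = 0.501).

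Of 21 measured textbook let-7 targets, 14 were above 0, against 51.2% of all genes. Their median was 0.09 against 0.0037 over all genes, and none passed over all genes in edgeR. At an unadjusted edgeR p of 0.05, 2 were higher and 1 lower, or 14.3% against 13.0% of all genes. CCND2, which encodes the CDK4 partner cyclin D2, held 18.3, 23.98, 19.7 and 27.2 CPM in CDK4KO libraries, against 13.9, 10.97, 13.9 and 16.5 CPM in CDK4WT libraries. All its CDK4KO libraries lay above all its CDK4WT libraries, as in 3.87% of all genes. The log2 difference was 0.69 ± 0.15 (SE). Its adjusted p was 0.113 in edgeR, 0.00197 in DESeq2, 0.0205 in limma voom and 0.0326 in edgeR without CDK4KO replicate 1. It was 0.107 to 0.328 in edgeR without any other single library, 0.0889 with the replicate number as a block and 0.0411 without both CDK4KO replicates 1 and 4. YOD1, a deubiquitinase, averaged 29.2 CPM ± 2.98 in CDK4KO and 34.4 CPM ± 3.62 in CDK4WT (-0.24 ± 0.10, edgeR adjusted p = 0.334).

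The let-7 seed match was also counted in annotated 3′ untranslated regions, a step chosen after the other values were seen. Of 12129 genes with such a region, 10970 had no CTACCTC, 1027 had 1 and 132 had 2 or more. Median log2 differences were 0.0026 without a site, 0.018 with 1 site and 0.0408 with 2 or more. The quartiles overlapped widely, at -0.0884 and 0.0872 without a site, -0.0802 and 0.102 with 1, and -0.0636 and 0.139 with 2 or more. An unadjusted edgeR p below 0.05 was found in 12.8%, 16.0% and 12.9% of these sets in turn. The regions were also of unequal length, with medians of 917, 2596 and 4961 bases, and the part of length in the log2 medians was not tested. None of the 7 members had the match in its own region, whereas 14 of the 21 listed targets did.

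Genes of RNA degradation downstream of tailing were read by list, and none of them passed in edgeR, as against 0.0591% of all genes that did. Of 13 measured genes of the RNA exosome, the nuclease complex that works from the 3′ end, 7 were above 0, with a median of 0.00 (0.0046). An unadjusted edgeR p below 0.05 was found in 7.69% of the 13, against 13.0% of all genes. C1D, a nuclear cofactor of the exosome, averaged 24.8 CPM ± 3.40 in CDK4KO and 29.4 CPM ± 2.98 in CDK4WT (-0.25 ± 0.11, adjusted p = 0.372), and EXOSC7, a subunit of its ring, stood at -0.17 ± 0.08 (adjusted p = 0.386). Of 10 exosome adapters, 4 were above 0 with a median of -0.03. ZFC3H1, the scaffold that links polyadenylated nuclear RNA to the exosome, held 96.5, 122, 124 and 119.6 CPM in CDK4KO libraries, against 98.5, 98.2, 92.5 and 90.0 CPM in CDK4WT libraries. CDK4KO replicate 1 lay among the CDK4WT libraries and the other 3 above them, with a log2 difference of 0.29 ± 0.08 (adjusted p = 0.190 in edgeR, 0.0252 in limma voom and 0.0197 in edgeR without CDK4KO replicate 1). Its adjusted p was 0.0561 in DESeq2, 0.236 to 0.453 in edgeR without any other single library, and 0.0132 without both CDK4KO replicates 1 and 4. SKIC8, a subunit of the cytoplasmic SKI complex, stood at -0.16 ± 0.08 (edgeR adjusted p = 0.424).

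Of 22 deadenylases and trimming exonucleases, 14 were above 0 with a median of 0.01, and none passed in edgeR. An unadjusted edgeR p below 0.05 was found in 9.09% of the 22, against 13.0% of all genes. PNPT1, the mitochondrial polynucleotide phosphorylase, averaged 42.4 CPM ± 4.25 in CDK4KO and 51.2 CPM ± 2.02 in CDK4WT (-0.27 ± 0.08, edgeR adjusted p = 0.193). All its CDK4KO libraries lay below all its CDK4WT libraries, as in 3.81% of all genes. ERI1, an exonuclease that trims histone mRNA ends, averaged 17.2 CPM ± 2.40 in CDK4KO and 21.0 CPM ± 1.87 in CDK4WT (-0.28 ± 0.11, adjusted p = 0.299). Among 8 genes of histone mRNA turnover, a process in which uridylation starts decay, ERI1 had the smallest p and SMG1, a kinase of nonsense-mediated decay, stood at 0.19 ± 0.09 (adjusted p = 0.381), with 6 above 0 and a median of 0.09.

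Of 16 genes of decapping and 5′ to 3′ decay, the route that follows uridylation of mRNAs, 9 were above 0 with a median of 0.02. None passed in edgeR, and 12.5% had an unadjusted edgeR p below 0.05, against 13.0% of all genes. PATL1, a decapping activator that binds the LSM ring on oligo(U) ends, averaged 125 CPM ± 6.87 in CDK4KO and 139 CPM ± 5.33 in CDK4WT (-0.16 ± 0.06, adjusted p = 0.286). LSM3, a subunit shared by the cytoplasmic LSM ring and the U6 ring, averaged 32.04 CPM ± 1.84 in CDK4KO and 35.6 CPM ± 0.638 in CDK4WT (-0.15 ± 0.06, adjusted p = 0.342). In both genes all CDK4KO libraries lay below all CDK4WT libraries, as in 3.81% of all genes. Of 16 genes of the U6 particle, the substrate of TUT1, 6 were above 0 with a median of -0.03, and after LSM3 the smallest p was that of MEPCE, a methylphosphate capping enzyme, at 0.14 ± 0.09 (adjusted p = 0.559). Of 7 factors of cytoplasmic polyadenylation, 5 were above 0 with a median of 0.01 (0.0090), and CPEB2 and CPEB3, proteins that bind the cytoplasmic polyadenylation element, stood at -0.18 ± 0.11 and 0.12 ± 0.11 (adjusted p = 0.527 and 0.675).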

How the data were processed

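The values deposited by the authors are raw read counts, whole and not normalized, in 1 table keyed by Ensembl identifier. Tumour RNA was isolated with Trizol for mRNA sequencing, per the labels' protocols. The submitters' processing notes name cutadapt, STAR 2.7.11a, featureCounts 2.0.4 and DESeq2 1.46.0 on hg38. The sources used here do not give the annotation release, the strand setting or how reads from mouse cells were handled. Every gene of the table exceeds 1 CPM in at least 4 libraries, so edgeR's filter removed 0 genes. CDK4KO columns are numbered by library, so they were matched to samples through the library names.

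Symbols were found for 13524 of 13546 identifiers, and coordinates and lengths come from GENCODE 29, of the same build. The comparison used the robust quasi-likelihood test of edgeR 4.0.16 under R 4.3.3, after TMM scaling and filterByExpr, with Benjamini-Hochberg adjusted p-values over all genes and a threshold of 0.05. CPM are TMM-scaled, log2 differences are CDK4KO minus CDK4WT, and standard errors and 95% intervals are those implied by the F statistic. Likeness used log2 CPM with a prior count of 2. The edgeR test was tried on simulated counts without outlying libraries, which does not check the other steps.

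Members and lists were chosen with earlier results of these data known. Named genes are the 7 members, 2 per list with the smallest p, and the 5 genes most like TUT7 with an average log2 CPM of at least 2. Genes shared by 2 lists are named once, and ISCA1 was named after its values were seen. Alternatives were DESeq2 1.42.0, limma 3.58.1 (voom with quality weights), other scalings and filters, non-robust dispersions, the replicate number as a block, other gene lengths and leaving out libraries.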

Additional observations from a re-analysis of the deposited data

Results flagged for a closer look

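TENT4A in CDK4KO replicate 2, at 98.1 CPM, stood apart from the other 3 CDK4KO libraries, at 89.2, 89.2 and 89.8 CPM. The gap to its nearest neighbour made up 0.926 of the range of the 4 values, above Dixon's 95% critical value for 4 values. It was 1 of 14 groups of 4 libraries examined, and chance alone flags about 1 group in 20. Without that library the log2 difference of TENT4A was -0.10, against -0.06 with it, and it did not pass in either fit (edgeR adjusted p = 0.531 and 0.680, and 0.531 to 0.844 over its alternatives).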

How the results depend on the processing

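The count of genes called over all genes, 8 with 6 higher, depended on the setting. It was 315 (170 higher) in DESeq2, 285 (163 higher) in limma voom, 14 (7 higher) with library size only, 20 (13 higher) with a mean CPM of at least 5 and 13 (10 higher) with the replicate number as a block. With 1 library left out it ran from 0 to 183: 183 without CDK4KO replicate 1, 17 without CDK4KO replicate 4, 0 without CDK4KO replicate 2 or CDK4WT replicate 4, and 1 without each of the others. It was 447 (277 higher) when both CDK4KO replicates 1 and 4 were dropped, an alternative chosen after seeing the data. The 6 members other than TUT7 stayed at 0 calls under all 17 alternatives, with adjusted p of 0.172 to 0.994. The number of them with no overlap was 1 or 2 with 1 library left out and 2 without both CDK4KO replicates 1 and 4. The share over all genes was not counted for these smaller sets of libraries. The TUT4 difference, 0.02, ran from -0.0175 to 0.0492 with 1 library left out and changed sign in limma voom (-0.0044), without CDK4KO replicate 2 (-0.0017) and without CDK4WT replicate 4 (-0.0175). The other members kept their direction under these alternatives, and TUT7 ran from 0.44 to 0.58. Deviations of same-numbered libraries correlated at -0.031, -0.014, 0.003 and 0.194, so the numbers were not taken as pairs, and the replicate block changed no member's call. TUT1, with 171 to 264 reads a library, limits what its difference can show.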
